A study of Mus musculus with 17 samples.

Results

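The kidneys compared here were taken after ischemia reperfusion injury (IRI), and the question was which miRs stood at another level on days 14, 21 and 30 (late) than on days 1, 3 and 5 (early). The 6 IRI samples of those days, of 17 samples in the series, were chosen by their labelled surgery and day, and the IRI samples of days 7 and 10 served only to see whether their levels lay between. All mice were C57/BL6, 10-12 weeks old and of 1 sex, which the labels give as female and the study's methods as male. IRI kidneys had 30 minutes of warm ischemia on 1 side, sham kidneys had the operation without it, and each sample was RNA pooled from 3 mice. There was 1 pool for each surgery and day. The days therefore served as replicates, and every p-value below measures a difference against the spread between days of the same phase, which holds any change over time within the phase as well as error between pools. Every IRI pool carried Cy3 and shared its array with the sham pool of its day, which carried Cy5. No dyes were swapped, and a dye bias that is equal on all arrays cancels between late and early IRI days. Each day had its own array, so that within the IRI samples the day and the array cannot be told apart.

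MicroRNAs (miRs) are short RNAs that pair with target messages mainly through bases 2 to 8 of their 5′ end, the seed, and lower the output of those messages. After ischemia the tubule epithelium of the kidney is injured and regrows, leukocytes enter the tissue and fibroblasts may lay down matrix, and each of these cell types carries its own abundant miRs. In RNA from whole kidney, fewer cells of a type and less of a miR per cell cannot be told apart.

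The mature sequences of the miRs on which the comparison turned are shown here because miRs with the same seed, or from the same gene cluster, did not all pass the test. They were read from RefSeq (GRCm38.p6), where the array's probe target was identical to a RefSeq mature miR for 70 of the 86 miRs tested, and the capitals mark the seed. First come 3 of the 4 miRs that were higher on late days, of which miR-146a and miR-146b share a seed; the other was miR-150.
miR-146a: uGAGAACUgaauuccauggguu
miR-146b: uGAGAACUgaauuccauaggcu
miR-199a-3p: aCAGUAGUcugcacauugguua
Next are 4 of the 6 miRs that were lower on late days, the others being miR-805 and miR-185, with the relatives that did not pass: miR-200b, which shares the seed of miR-429 and lies in the same cluster as miR-200a and miR-429, miR-30a, which shares the seed of miR-30e, and miR-192, which neighbours a copy of miR-194.
miR-200a: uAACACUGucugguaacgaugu
miR-429: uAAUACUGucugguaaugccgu
miR-200b: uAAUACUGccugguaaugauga
miR-30e: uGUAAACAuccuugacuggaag
miR-30a: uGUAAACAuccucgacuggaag
miR-194: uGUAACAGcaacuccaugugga
miR-192: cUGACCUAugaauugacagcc

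The arrays carried 569 mature mouse miRs, each printed as 6 spots. Of these, 86 had a mean processed value of 200 or more over the 8 IRI samples and were tested, and 468 of the other 483 stayed under 200 in every IRI sample. Values are the authors' processed intensities on a linear scale, and differences are late minus early on the log2(value + 50) scale, which understates the change of a miR with low values. The spread between the spots of a miR, as the median coefficient of variation in a sample, was 17.6% in IRI day 14 and 16.4% in IRI day 30, and between 5.04% and 7.08% in the other IRI samples. Both noisy samples were late samples. The number of arrays, not the number of spots, limits the precision. The kidney label was set beside marker lists: 11 of 14 tubule miRs passed the filter in the IRI samples, whereas none of the 9 miRs of muscle, liver and neurons did, the highest of these being miR-1 at 139. The tubule miRs that did not pass, miR-215, miR-204 and miR-211, reached at most 23, 84 and 23 in the IRI samples.

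On late days 10 of the 86 tested miRs (11.6%) differed from early days in IRI kidneys with limma and Benjamini-Hochberg adjustment at a threshold of 0.05. Of these, 4 (4.65%) were higher on late days, namely miR-146b, miR-146a, miR-199a-3p and miR-150. The 6 (6.98%) that were lower were miR-805, miR-200a, miR-429, miR-194, miR-30e and miR-185. The split turned under 2 alternative treatments of the scanner values, to 6 higher and 5 lower after normexp, loess and quantile normalization and to 8 higher and 6 lower after subtraction of empty spots and median scaling. It also turned with no filter (6 higher, 3 lower), without day 21 (3 and 2) and without day 30 (3 and 2), and was even with a filter of 100 (6 and 6). At an unadjusted p under 0.05 there were 27 miRs, 12 higher and 15 lower. The sham samples of the same arrays gave 0 of 86 (0.0%) in the same limma test, and 14 at an unadjusted p under 0.05. The median absolute difference over the 86 miRs was 0.39 in IRI and 0.29 in sham. Late and early IRI values did not overlap in 33 miRs (38.4%), with 15 (17.4%) higher and 18 (20.9%) lower on late days, and all 10 miRs past the threshold were among them. With 3 days against 3, the smallest p that a two-sided exact permutation test can give for a single miR is 0.1, which each of the 33 reached.

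**Figure D1:**
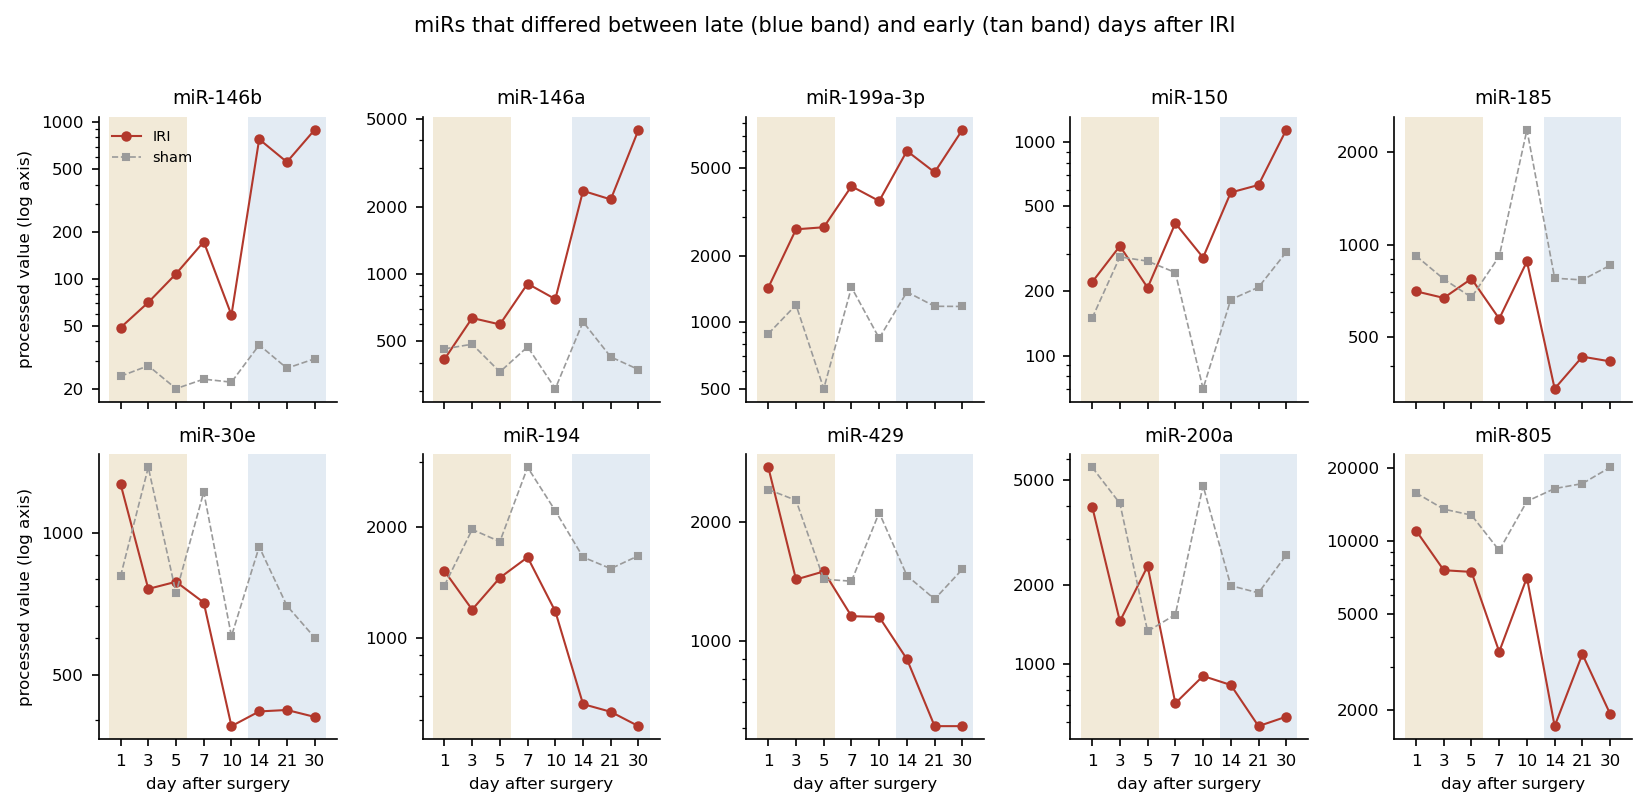
Processed value (log axis) of each of the 10 miRs past the threshold on the 8 days after surgery, with IRI as red circles and sham as grey squares, 1 pool per point, early days on tan and late days on blue. In each panel the 3 late IRI points lie on one side of the 3 early IRI points, and the sham points show no such separation for miR-146b, miR-146a and miR-150.

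The largest differences were those of the miR-146 pair, miRs induced by inflammatory signalling that restrain it by repressing adaptors of the NF-kB pathway. miR-146b was at 49, 71 and 108 on days 1, 3 and 5 and at 780, 558 and 895 on days 14, 21 and 30. The late values were well clear of the early ones, and those of days 7 and 10, 173 and 59, stayed near the early level. The mean was 76.0 ± 29.8 early and 744 ± 171 late (SD, n = 3 days each). The log2 difference was 2.66 ± 0.25 (SE), or 6.32-fold on the scale of the test, with an adjusted p of 0.00113 (limma). Since its early values were all under 200, miR-146b passed the filter only through its late values. Its 6 sham values on the same arrays lay between 20 and 38.

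Its relative miR-146a was at 416, 637 and 596 early and at 2369, 2168 and 4449 late. All late values stood far above the highest early one, and days 7 and 10, at 908 and 774, lay a little above the early days. This gave a log2 difference of 2.29 ± 0.31 (SE), or 4.89-fold (adjusted p = 0.00612, limma). In sham the values ran from 365 to 612 over the same 6 days, without a split between early and late. The targets of both probes differ at 2 of 22 positions, outside the seed, and whether the probes share signal was not tested. In the sham samples, where miR-146a was at 307 to 612, miR-146b was at 20 to 38. miR-146a lies at chr11:43374435-43374456 on the minus strand and miR-146b at chr19:46342790-46342811 on the plus strand (GRCm38.p6), so they are separate genes.

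miR-150, abundant in mature lymphocytes, was at 221, 326 and 208 early and at 581, 630 and 1142 late. Day 30 was the highest, and the lowest late value stood clear of the highest early one. The log2 difference was 1.43 ± 0.29 (SE), or 2.69-fold (adjusted p = 0.0215, limma). Days 7 and 10 stood at 417 and 288, between the means of both phases. Sham values ran from 150 to 305 and their difference was -0.02.

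Of the 8 leukocyte miRs listed, 4 were tested and 3 of these, the miRs just described, were higher on late days, beside 4.65% of all tested miRs. The median of the 4 was 1.86, beside -0.06 over all 86 tested miRs. miR-146b passed the filter only through its late values, and with the filter set over all 17 samples 3 members were tested and 2 called, with a median of 1.43. The remaining member, miR-155, which is induced on activation of lymphocytes and macrophages, was at 1905, 1125 and 1887 early and at 940, 655 and 1304 late. Its phases overlapped, with a log2 difference of -0.75 ± 0.31 (SE, adjusted p = 0.149, limma), and its sham values were lower on all 6 days, at 209 to 616. The other 4 stayed below the filter and are given as values. miR-142-3p and miR-142-5p, which are made across blood cell lineages, were at 8 to 24 in every IRI sample, near the median of 17 to 20 over all miRs, and were above the empty spots on 0 of the 6 arrays. miR-342-3p, found in lymphocytes, was at 41, 44 and 40 early and at 148, 150 and 324 late. miR-223, a miR of granulocytes and monocytes, was at 43, 88 and 56 early and 156, 196 and 89 late, with its highest value, 253, on day 7. With no filter on level, miR-342-3p passed the test at a log2 difference of 1.42 (adjusted p = 0.0483, limma).

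miR-199a-3p, a miR of fibroblasts and other mesenchymal cells, was at 1437, 2641 and 2699 early and at 5987, 4791 and 7465 late. No late value came near the early ones, and days 7 and 10, at 4141 and 3549, filled the gap between them. They differed by 1.44 ± 0.30 on the log2 scale (SE), or 2.71-fold (adjusted p = 0.0215, limma). Sham was at 887, 1199 and 500 early and at 1373, 1182 and 1180 late, with overlap and a difference of 0.58. The probe target is identical in miR-199a-3p and miR-199b-3p, so the signal can come from 3 loci, at chr9:21496498-21496519, chr1:162217883-162217904 and chr2:32318524-32318545. On chromosome 1 the hairpin lies with that of miR-214 within 5664 bp. miR-214, studied for its part in kidney fibrosis, was at 437, 1759 and 1879 early and at 3899, 3206 and 1872 late. The late value of day 30 fell within the early range, and the log2 difference of 1.29 ± 0.56 (SE) did not pass (adjusted p = 0.154, limma). Without day 1 it was 0.64, and in sham it was 1.47, from 552, 412 and 656 to 825, 1912 and 2404.

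The list of fibroblast and injured stroma miRs had 4 tested members of 11, of which 1 was called, beside 4.65% of all tested miRs called higher. The number called was 3 with empty spots subtracted from the scanner values, 2 with the array as a random block, and 0 with no filter, without day 14 and without day 30. All 4 had positive differences apart from miR-21 under some scalings (below 0 in both 2-colour scanner settings), with a median of 1.05 in IRI (0.64 without day 1) and 0.71 in sham. miR-132 was at 211, 394 and 263 early and at 608, 631 and 393 late (0.82 ± 0.27 SE, adjusted p = 0.0887, limma; 0.0338 with the array as a random block and 0.0497 with empty spots subtracted), beside 0.84 in sham. miR-21, the miR best known for its rise in injured and fibrotic kidney, was high in every IRI sample. It was at 19453, 33009 and 30524 early, 34893 and 32101 on days 7 and 10, and 37621, 26089 and 23919 late. Late and early days overlapped, at a log2 difference of 0.09 (95% interval -0.56 to 0.74, adjusted p = 0.83, limma), and the scanner values gave -0.20 or -0.45 in the 2-colour treatments and 0.21 with Cy3 alone. In sham the values lay between 2959 and 8829 on the same days.

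The lower miRs included members of the miR-200 family, which keep cells epithelial by repressing the ZEB factors. miR-200a was at 3967, 1454 and 2355 early and at 833, 581 and 631 late. Days 7 and 10 were already at 710 and 901, within or beside the late range. Late minus early came to -1.75 ± 0.36 (SE), or 3.37-fold lower (adjusted p = 0.0215, limma). miR-429 was at 2754, 1430 and 1499 early and at 898, 607 and 607 late, again without overlap, and at 1154 and 1149 in between. Its log2 difference was -1.32 ± 0.30 (SE), or 2.50-fold lower (adjusted p = 0.0247, limma). In sham the differences were -0.55 for miR-200a and -0.48 for miR-429, with overlap between the phases in both and neither past the threshold.

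These miRs and miR-200b are cut from hairpins that lie within 1846 bp, at chr4:156053905-156055750 on the minus strand (GRCm38.p6). miR-200b, from the same cluster, was at 10060, 7121 and 7187 early and at 6826, 5446 and 4618 late. The phases did not overlap, yet the log2 difference was -0.52 ± 0.23 (SE) and did not pass (adjusted p = 0.154, limma). With empty spots subtracted it was -0.91 (adjusted p = 0.0621, limma). miR-200c, from the other cluster of the family on chromosome 6, was at 2305, 2376 and 1768 early and at 2360, 1985 and 1615 late. Its difference was -0.12, with a 95% interval of -0.62 to 0.38 (adjusted p = 0.70, limma), and -0.28 with empty spots subtracted. miR-141, which shares the seed of miR-200a and differs from it at 2 of 22 positions, was at 17 to 98 in the IRI samples and was not tested. All 4 tested members of the family had negative differences (median -0.92, sham -0.41) and 2 of the 4 were called, beside 6.98% of all tested miRs called lower. None of the 4 was called without day 5, without day 21, without day 30 or with no filter. The difference between the members themselves was not tested.

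**Figure D2:**
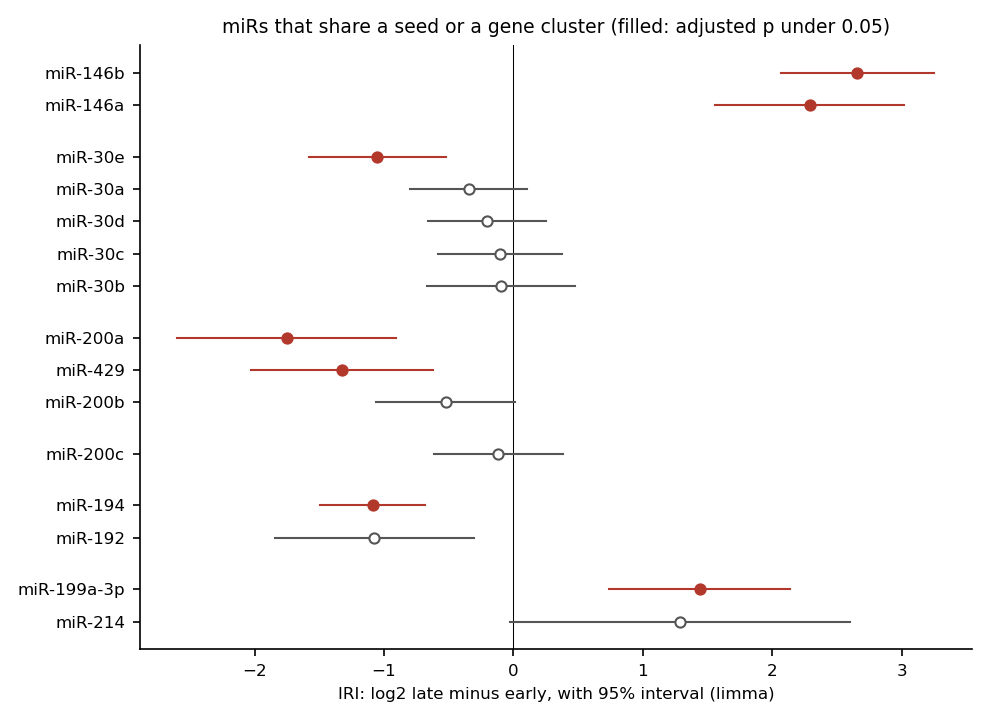
Late minus early log2 difference in IRI kidneys, with the 95% interval from limma, of miRs that share a seed (miR-146 and miR-30 groups) or a gene cluster or family (miR-200a to miR-200c, miR-194 with miR-192, miR-199a-3p with miR-214). Filled red points passed an adjusted p of 0.05: both miR-146 members, 1 of 5 miR-30 members, miR-200a and miR-429 of the miR-200 family, miR-194 and miR-199a-3p.

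miR-194 and miR-192 are abundant miRs of the renal tubule and the gut, and share a gene cluster. miR-194 was at 1520, 1195 and 1457 early, at 1655 and 1182 on days 7 and 10, and at 664, 633 and 579 late. The early level was thus kept to day 10, and the 3 late values were close to each other and far below it. The log2 difference was -1.09 ± 0.17 (SE), or 2.13-fold lower (adjusted p = 0.0080, limma), while sham stayed between 1388 and 1967 (difference -0.07). miR-192 was at 5893, 3192 and 4548 early, 3301 and 2810 in between, and 2159, 2899 and 1406 late. There was no overlap, but the early days were far apart, and the log2 difference of -1.07 ± 0.33 (SE) did not pass (adjusted p = 0.074, limma). It passed with the array as a random block (0.0304), with Cy3 alone (0.0248), after subtraction of empty spots from the scanner values (0.0070), after median centring (0.0161) and with a variance trend (0.0365). miR-194 has 2 loci. One, at chr19:6264658-6264679, lies within 290 bp of miR-192 on the plus strand. The other, at chr1:185313325-185313346, lies beside miR-215, another tubule miR that was not tested.

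miR-30e belongs to a family abundant in tubule cells and podocytes. It was at 1271, 761 and 788 early and at 418, 421 and 407 late, with day 7 at 712 and day 10, at 389, below the late days. The late values were nearly equal, and all were lower than the early ones. Late minus early was -1.05 ± 0.23 (SE), or 2.07-fold lower (adjusted p = 0.0215, limma), beside -0.34 in sham. Its gene, at chr4:120772660-120772681 on the minus strand, lies with a copy of miR-30c within 3164 bp. The other 4 family members carry the same seed and none was called: miR-30a had a log2 difference of -0.35, miR-30d of -0.21, miR-30c of -0.10 and miR-30b of -0.10. With empty spots subtracted these were -0.51, -0.34, -0.53 and -0.46, beside -1.02 for miR-30e. After normexp, loess and quantile normalization they were -0.29, -0.19, -0.03 and 0.01, again beside -1.02. miR-30a differs from miR-30e at 1 position of 22. It was at 2819, 1936 and 2316 early and at 1718, 1982 and 1780 late, with overlap.

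The tubule list as a whole had 11 tested miRs, of which 2, miR-194 and miR-30e, were called lower and none higher, beside 6.98% lower and 4.65% higher over all tested miRs. With no filter, or without day 14, day 21 or day 30, 1 was called lower. Its median of -0.10, 0.02 without day 1, was close to the -0.06 of all tested miRs, and 7 of the 11 were negative. miR-26a, the member of highest level, was at 20476, 19434 and 20148 early and at 21205, 21355 and 21275 late (0.09 ± 0.15 SE, adjusted p = 0.673, limma), and it had -0.45 with empty spots subtracted and -0.06 after normexp, loess and quantile normalization. miR-10a, from a Hox gene cluster, and miR-10b were higher on each late day than on each early day, by 0.41 and 0.39, and did not pass (adjusted p = 0.154 and 0.186, limma). With empty spots subtracted from the scanner values and samples scaled to 1 median, all 11 differences were negative with a median of -0.46, miR-10a at -0.03 and miR-10b at -0.09, beside a median of -0.25 over all tested miRs in that setting. miR-204, an epithelial miR of the tubule, never reached the filter: it was at 20, 12 and 12 early and at 75, 84 and 52 late. With no filter on level it passed the test (0.89, adjusted p = 0.0200, limma), all at values under the 200 that the study's methods take as the limit of reliable detection. It was above the empty spots on 1 of the 3 early arrays and on all 3 late ones, so the early level is not measured reliably.

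miR-805, whose probe target was identical to no RefSeq mature miR, as for miR-150 and miR-185, had the largest difference among the lower miRs. It was at 11063, 7580 and 7457 early and at 1714, 3403 and 1928 late, and at 3484 and 7067 on days 7 and 10. No late value came near the early ones, and day 7 was already close to the highest late value. The log2 difference was -1.91 ± 0.30 (SE), or 3.75-fold lower (adjusted p = 0.0080, limma). Sham stood higher throughout and went the other way, from 15836, 13565 and 12817 to 16507, 17307 and 20212 (0.36). miR-185 was the smallest of the changes called. It was at 703, 669 and 773 early and at 338, 430 and 415 late, a log2 difference of -0.79 ± 0.17 (SE, adjusted p = 0.0215, limma), while days 7 and 10, at 572 and 880, scattered on either side of the early range. Sham stayed between 672 and 918.

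The miRs next in size, whose phases did not overlap but which missed the threshold, were miR-689, miR-181a, miR-125b-5p and miR-23a above and miR-192 and miR-378 below. miR-689 was at 109, 709 and 544 early and at 2176, 1825 and 784 late (1.87 ± 0.64 SE, adjusted p = 0.0969, limma). miR-181a, a regulator of lymphocyte receptor signalling, was at 265, 229 and 289 early and at 378, 473 and 683 late (0.82, adjusted p = 0.0628, limma). It passed in both 2-colour scanner settings (0.0378 and 0.0497), with values under 200 set to 200 (0.0484) and with the array as a random block (0.0338). miR-125b-5p was at 2791, 2677 and 2632 early, closely grouped, and at 3405, 4389 and 5637 late (0.69, adjusted p = 0.074, limma), with 0.39 when empty spots were subtracted (adjusted p = 0.439, limma). miR-378 was at 540, 333 and 513 early and at 205, 243 and 259 late (-0.82, adjusted p = 0.0533, limma). It passed with a pseudocount of 10 (0.0461), values under 200 set to 200 (0.0393), median centring (0.0418), Cy3 alone (0.0354) and without day 3 (0.0303). Its days 7 and 10 were at 323 and 658.

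Day 1 stood apart for one group of miRs. miR-709 was at 1109 in the IRI sample of day 1 and between 18378 and 39266 in the other 7 IRI samples, with 17677 in sham on the same array. miR-762, miR-689, miR-214 and miR-1224 were next, lower on day 1 than on days 3 and 5 by log2 differences of -2.13, -2.08, -1.94 and -1.64. In sham, miR-762 was also lower on day 1, at 736, than on days 3 and 5, at 1185 and 6314. The sham day 1 values of miR-709, miR-689, miR-214 and miR-1224 lay between those of days 3 and 5. The GC content of these 5 miRs ranged from 59.1% to 85.7%, beside a median of 46.5% over tested miRs. The miRs next in order, miR-574-5p, miR-423-5p, miR-199a-3p, miR-690 and miR-21, had 36.4% to 56.5%. The part of GC content in the day 1 values was not tested. None of the 5 was called in the processed values as deposited. miR-689 was called after normexp, loess and quantile normalization of the scanner values (adjusted p = 0.0378, limma), after subtraction of empty spots from them (0.0011) and after median centring (0.0228), and miR-214 after that subtraction (0.0479). miR-709 had a late minus early difference of 1.74 ± 1.05 (SE, adjusted p = 0.274, limma), and 0.36 without day 1. That of miR-689 was 1.17 without day 1. With empty spots subtracted from the scanner values miR-709 had 1.10. miR-199a-3p was also low on day 1, and kept its call without that day at 1.15 (adjusted p = 0.0243, limma).

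The remaining lists, apart from the miRs that the study names (below), gave no called miR in the processed values as deposited. Single members passed limma in an alternative: miR-98 with the array as a random block (adjusted p = 0.0402), miR-23a with a variance trend (0.0274), miR-125a-5p with Cy3 alone (0.0248) and 1 miR-29 member without day 5. The 9 tested members of the let-7 family, which favour differentiation, had a median of -0.30 (-0.84 with empty spots subtracted, -0.11 with Cy3 alone), with 8 negative (9 in the scanner values of 2 settings) and 5 of 9 without overlap beside the 38.4% of all tested miRs. let-7a was at 36092, 38557 and 43822 early and at 32859, 29552 and 34676 late (-0.29 ± 0.17 SE, adjusted p = 0.269, limma), and had -0.86 and -0.10 in the same scanner settings. Its relative miR-98 was at 7250, 6276 and 8064 early and at 3930, 4436 and 5446 late (-0.64, adjusted p = 0.074, limma), but days 7 and 10 lay below both phases, at 1616 and 609, and sham on those arrays was at 1168 and 328. The 5 miRs of the miR-23, miR-24 and miR-27 clusters all had positive differences (median 0.53, 0.15 with empty spots subtracted, sham 0.36). miR-23a was at 7163, 6895 and 6681 early and at 8786, 13241 and 10734 late (0.64, adjusted p = 0.074, limma), with 0.15 when empty spots were subtracted and 0.92 in sham. For miR-99, miR-100 and miR-125 the median of 3 tested miRs was 0.50 in IRI and -0.62 in sham.

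The 2 tested miR-29 members, which repress collagens, were negative, with miR-29c at 1539, 1053 and 521 early and 542, 382 and 459 late (-0.98 ± 0.37 SE, adjusted p = 0.126, limma). Smooth muscle and pericyte miRs had a median of 0.09 over 4 tested miRs (0.02 without day 1, 0.18 without day 5, 0.22 without day 21, -0.04 without day 30). Those of proliferation had -0.13 over 5 (-0.07 without day 5, 0.01 without day 21, -0.02 without day 30). The miR-15 and miR-16 group had -0.11 over 4 (-0.03 without day 1, -0.23 without day 5, -0.23 without day 14, -0.04 without day 21, and -0.43 with empty spots subtracted). The endothelial miR-126-3p had -0.30 ± 0.26 (SE, adjusted p = 0.44, limma), with -0.12 without day 1, -0.51 without day 5, -0.13 without day 30 and -0.70 with empty spots subtracted. No erythroid miR was tested, the summed level of the 3 being 204 to 1038 on early days and 139 to 198 on late days, with miR-451 at 753 on day 1. The hypoxia miR, miR-210, was at 11 to 30 and not tested. Of the 9 miRs that the study names, 8 were tested, with 2 called higher, 2 called lower and a median of -0.16 (-0.37 to -0.04 over the alternatives), beside 11.6% of all tested miRs called (4.65% higher, 6.98% lower). The counts were 1 higher and 2 lower with no filter, without day 14 and without day 30, and 3 and 3 with empty spots subtracted. The study took that list from its earlier profiling of IRI and sham kidneys, whose arrays it appears to analyse again. The list is therefore no independent evidence of a direction. miR-187, the member not tested, was at 304, 178 and 153 early and at 89, 119 and 95 late, and miR-20a had -0.41 (adjusted p = 0.266, limma).

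**Figure D3:**
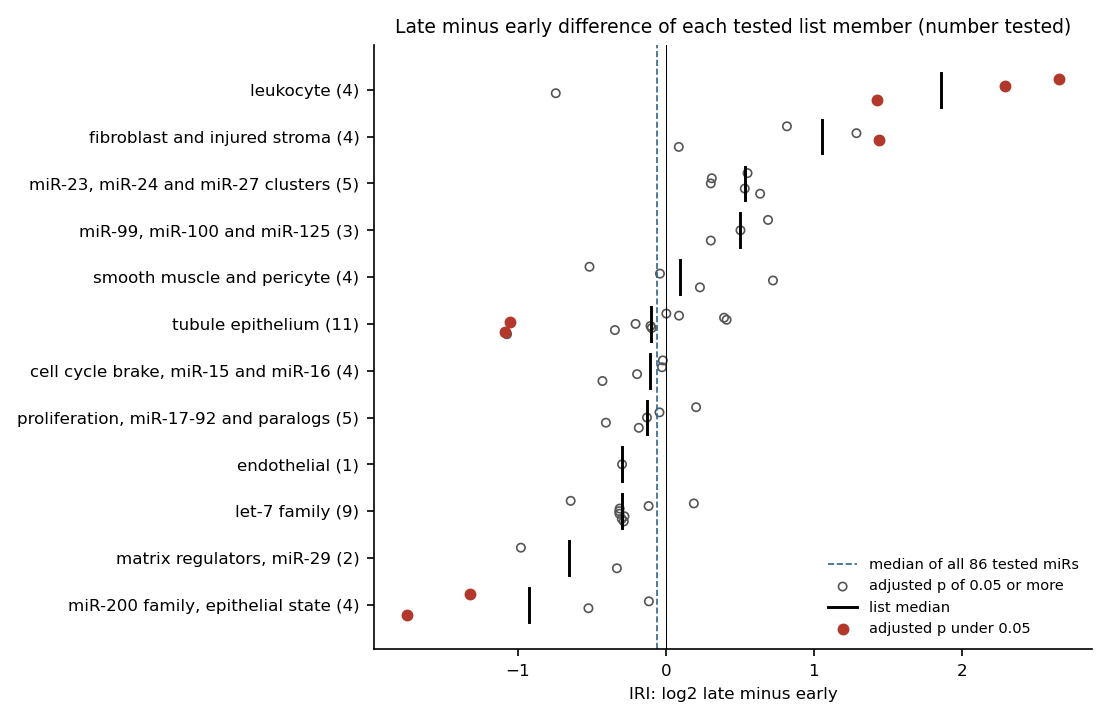
Late minus early log2 difference in IRI kidneys of each tested member of the lists that had any, apart from the list of miRs the study names, which is not drawn. The number tested is in brackets, the list median is a black bar and the median of all 86 tested miRs (-0.06) is a dashed line. Red points passed an adjusted p of 0.05 in limma: 3 leukocyte miRs and 1 stromal miR above 0, and 2 tubule and 2 miR-200 family miRs below 0.

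Days 7 and 10 lay mostly between the phases for the miRs past the threshold. The mean of both days was between the early and the late mean in 9 of the 10, the exception being miR-194, and in 36 of all 86 tested miRs (41.9%). miR-185 was between only as a mean of log2 values, since its mean of 726 over days 7 and 10 was above the early mean of 715. Taken singly, day 7 lay between in 9 of the 10 and day 10 in 7. Since a miR with a small difference leaves little room between its means, the share over all miRs is no measure of chance, and no test was made. How far the change had gone by then differed: miR-200a was near its late level on both days, whereas miR-146b, miR-146a and miR-194 were nearer their early level.

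To set the IRI change against what the same arrays showed in sham kidneys, the log2 ratio of IRI to sham on each array was compared between late and early arrays. It differed for 4 of 86 miRs (4.65%), all of them also among the 10 above, and for 20 at an unadjusted p under 0.05. For miR-146b the ratio was 0.42, 0.63 and 1.17 on days 1, 3 and 5 and 3.24, 2.98 and 3.54 on days 14, 21 and 30. All 3 late ratios were above all early ones, by 2.51 ± 0.30 on average (SE, adjusted p = 0.00476, limma). The miR-146a ratio was -0.14, 0.36 and 0.64 early and 1.87, 2.22 and 3.41 late (2.21 ± 0.44 SE, adjusted p = 0.0305, limma). For miR-150 the early ratios, 0.44, 0.15 and -0.34, lay around 0 and the late ones were 1.44, 1.39 and 1.75 (1.45 ± 0.29 SE, adjusted p = 0.0305, limma). miR-805 was below sham on every array, by -0.52, -0.84 and -0.78 early and -3.23, -2.33 and -3.36 late (-2.26 ± 0.33 SE, adjusted p = 0.00913, limma).

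**Figure D4:**
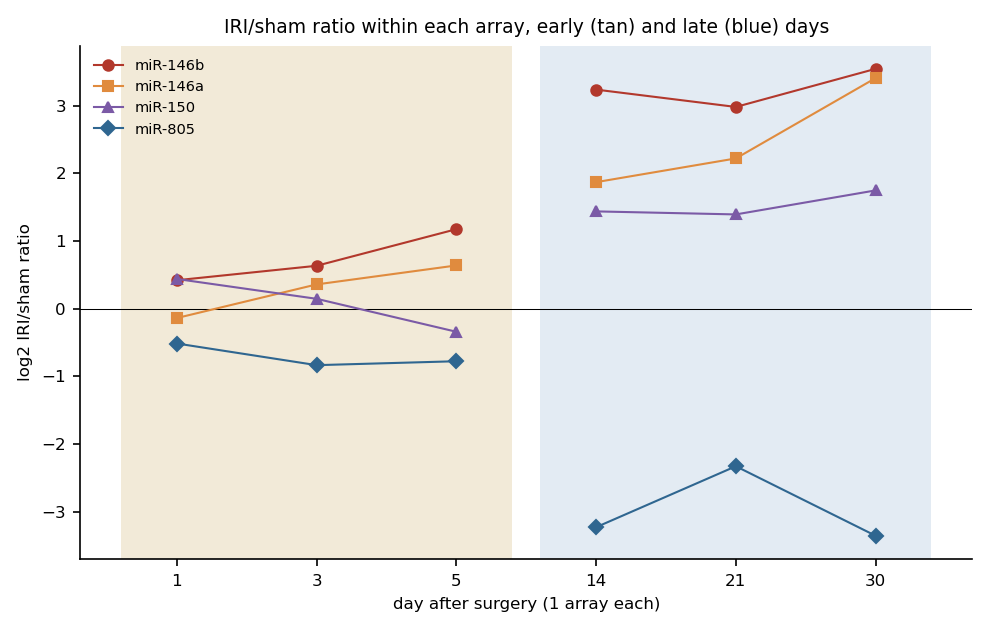
Log2 IRI/sham ratio within each array on the 3 early (tan) and 3 late (blue) days for the 4 miRs whose ratio differed between phases, 1 array per point. miR-146b, miR-146a and miR-150 lie between -0.34 and 1.17 early and between 1.39 and 3.54 late, and miR-805 goes from between -0.84 and -0.52 to between -3.36 and -2.33.

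The other 6 miRs called within IRI had ratio differences of the same sign that did not pass. miR-194 had -1.02 ± 0.29 (SE) and miR-185 -0.82 ± 0.26 (SE), both with an adjusted p of 0.0935 (limma). miR-200a had -1.21 (adjusted p = 0.232), miR-429 -0.85 (0.143), miR-199a-3p 0.86 (0.254) and miR-30e -0.71 (0.273), with limma. Among the remaining miRs whose late and early ratios did not overlap, the largest ratio differences were 1.58 for miR-125a-5p and 1.31 for miR-125b-5p above, and -1.51 for miR-145, -1.12 for miR-192 and -0.96 for miR-107 below, all with an adjusted p of 0.0935 (limma). Part of these came from sham. miR-125a-5p in sham went from 4880, 4543 and 8399 to 2952, 3425 and 1896, and miR-145, a smooth muscle miR, from 876, 1148 and 1991 to 4587, 5688 and 8748. miR-145 in IRI kidneys was at 2013, 1324 and 1863 early and at 1875, 4741 and 2595 late.

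**Figure D5:**
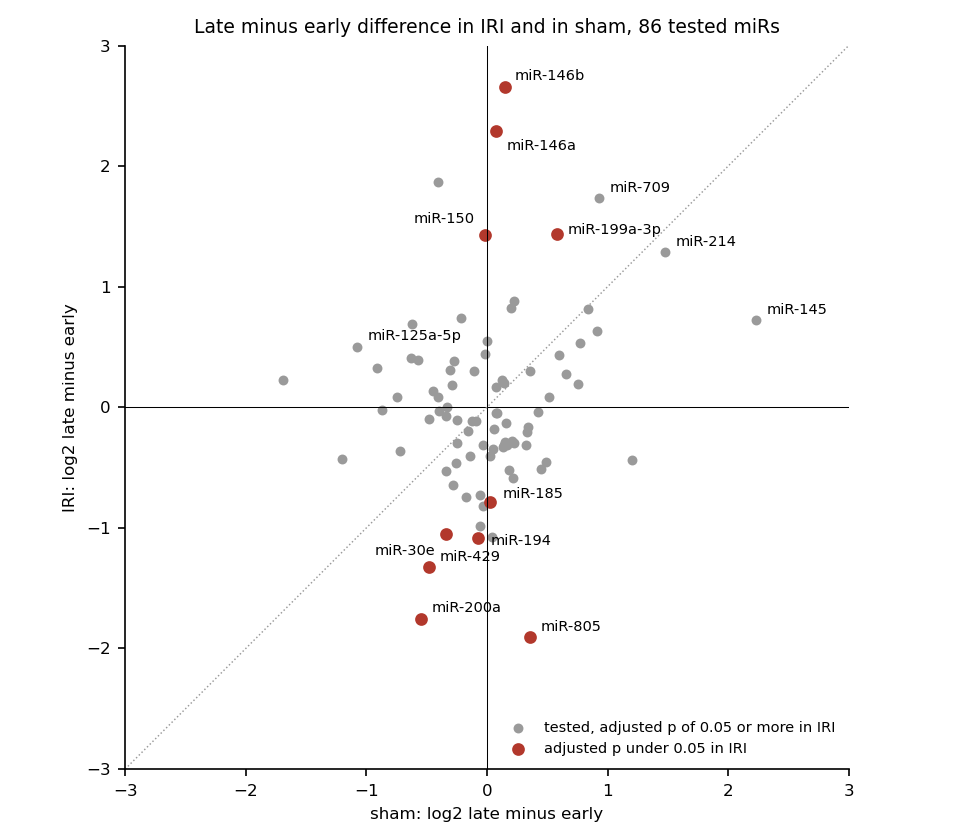
Late minus early log2 difference of the 86 tested miRs in sham (horizontal) and in IRI (vertical), with the 10 miRs past an adjusted p of 0.05 in IRI in red and equal differences on the dotted line. miR-146b, miR-146a, miR-150 and miR-805 lie far from the dotted line, as do miRs that did not pass, among them miR-125a-5p and miR-145. These 2 have their larger difference in sham, and miR-214 lies near the line.

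Of the 10 calls, 4, those of miR-146b, miR-146a, miR-194 and miR-805, were kept when each of the 6 days was left out in turn. The number called was 5 without day 21 and 5 without day 30, and miR-185 kept its call only without day 1. For the ratio, the number called was 14 without day 3, 2 without day 5 and 1 without day 30, and miR-146b was the miR called each time. The ratio call of miR-146a was lost without day 1, 5, 21 or 30, that of miR-150 without day 5, 14, 21 or 30, and that of miR-805 without day 30. In the scanner values, 10 of the 10 were called with Cy3 alone and 9 in each of both 2-colour treatments, where miR-185 was lost, as it was with a variance trend. When all 569 miRs were tested without a filter, miR-150, miR-199a-3p, miR-200a, miR-429 and miR-30e no longer passed.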

How the data were processed

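The authors deposited a table of processed intensities, 1 whole number for each of 569 mature miRs in 17 samples. How the table was made is not stated in the paper or labels. Its columns follow the scanner values of the channel they are named for (r of 0.981 or more over miRs), so scale and direction are known, and the step that set a common level (column medians of 17 to 20 over miRs) is not. The day 5 scanner file does not name IRI and sham at its channels, and its first channel was taken as IRI, as on the other arrays. Scanner intensities of every spot, as deposited by the authors, served as alternatives. No column lacked a sample, and 48 control entries were left out.

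Groups follow the labelled surgery and day. Values were analysed as log2(value + 50) for miRs with a mean of 200 or more over the 8 IRI samples. Late and early IRI samples were compared with limma 3.58.1 in R 4.3.3 (lmFit, eBayes) with Benjamini-Hochberg adjustment over 86 miRs and a threshold of 0.05. The same test was run on the log2 ratio of the channels of an array, which makes the array a block, and on sham. Exact permutation was run for single miRs. Other steps used Python 3.11.15, pandas 2.3.3 and matplotlib 3.10.9, and the fit was tested on simulated data.

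The miRs named are the 8 highest and 8 lowest differences past the threshold, filled up with the largest non-overlapping differences where fewer passed, the 9 miRs the study names, leading members of each list, and the 5 highest and 5 lowest ratio differences by the same rule. The remaining leukocyte, miR-30, miR-200 and tubule miRs, those low on day 1, miR-98, miR-122, miR-132, miR-451, miR-181b, miR-181d and miR-199a-5p were chosen after their values were seen. Members and lists were chosen with earlier results of these data known.

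The array pairs the IRI and sham samples of a day. Deviations of the pairs from their group means correlated at -0.05, -0.26 and 0.27 on early and 0.22, 0.27 and 0.35 on late arrays. Alternatives were 3 treatments of the scanner intensities, filters of 100 and 400, none, and over all 17 samples, pseudocounts of 10 and 200, a floor of 200, median centring, each day left out, a trend with robust variance, days 7 and 10 in the fit, and the array as a random block or no block.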

Additional observations from a re-analysis of the deposited data

Results flagged for a closer look

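Late minus early differed between IRI and sham kidneys, by the limma test of the ratio on each array, for 4 miRs. The IRI difference exceeded the sham difference by 2.5117 for miR-146b, by 2.2131 for miR-146a and by 1.4453 for miR-150 on the log2 scale, and lay below it by -2.2628 for miR-805. With each array left out in turn, the call was kept 6 times of 6 for miR-146b, 5 for miR-805, 2 for miR-146a and 2 for miR-150, and over the other 13 settings miR-146a kept it in 11 and miR-150 in 9. In each of the 4 the ratios of the 3 late arrays did not overlap those of the 3 early arrays. The same held for miRs whose ratio did not pass, among them miR-125a-5p, miR-145 and miR-192, so it adds nothing to the calls. Single samples that stand apart within a group were not tested for, since each phase has 3.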

How the results depend on the processing

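The count of 10 miRs in IRI stayed between 9 and 15 under the alternatives that kept all 6 days, and between 5 and 10 with each day left out in turn (5 without day 21 and 5 without day 30). Of the 10, all kept their sign in every setting in which they were tested. With no filter, when all 569 miRs were adjusted together, 5 of the 10 kept their call, and miR-150, miR-199a-3p, miR-200a, miR-30e and miR-429 lost it. miR-185 lost it in both 2-colour scanner settings and with a variance trend (adjusted p = 0.0577, limma). With empty spots subtracted, the SEs of single miRs were closer together: 0.34 for miR-26a and 0.43 for miR-689, beside 0.15 and 0.64 in the values as deposited. Adjusted p-values in that setting therefore rest less on the spread of the miR itself. With the array as a random replicate block the count was 15, with all 10 kept and miR-132, miR-181a, miR-192, miR-22 and miR-98 added. That fit also held the sham samples of the same arrays, which add to its degrees of freedom and variance estimate. For the ratio the count of 4 was 1 with the filter set over all 17 samples, where miR-146b was not tested, 5 with no replicate block, and 1 to 14 with each array left out. The ratio call of miR-150 was lost with no block, no filter, the filter over all 17 samples and median centring, and that of miR-146a with no filter and the filter over all 17 samples. It was 14 without day 3, 2 without day 5 and 1 without day 30, and the cause was not tested. miR-21, not called in any setting, had the opposite sign in both 2-colour scanner settings (-0.2008 after normexp, loess and quantile normalization, -0.4542 after subtraction and median scaling), was at 0.21 with Cy3 alone and ranged from -0.1484 to 0.2323 with each day left out. Days 7 and 10 lay between in 9 of the 10 called miRs, and in 10 in the scanner values. The median difference over tested miRs was -0.06, and -0.25 and -0.14 under the subtracted scanner values and median centring, so that differences of this size depend on the scaling. Arrays, 3 per phase and 1 per day, limit the precision, and the late phase holds the 2 samples with the widest spread between spots.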

Other observations

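miR-122, a miR of hepatocytes, was at 3571 in the sham sample of day 30 and at 16 to 30 in the other 7 sham samples. In the 8 IRI samples it was at 18 to 31. The sham sample of day 30 enters the ratios and not the comparison within IRI, and its part in the ratio results was not tested apart from leaving out its array, without which miR-146b alone kept its call.

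Several miRs below the filter had late IRI values above all early ones. miR-181d was at 24, 35 and 28 early and at 67, 81 and 98 late, miR-181b at 105, 46 and 49 early and at 144, 193 and 191 late, and miR-199a-5p, the other strand of the miR-199a hairpin, at 33, 49 and 65 early and at 113, 127 and 142 late. With no filter miR-181d (log2 difference 0.74, adjusted p = 0.0252) and miR-199a-5p (0.85, adjusted p = 0.0312) passed the limma test. miR-181b did not pass with no filter, and passed with a filter of 100 (0.98, adjusted p = 0.0354, limma), which its early values alone would not have reached. All of these values were under 200, and each was chosen after its values were seen.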
